A study of Mus musculus with 8 samples.

Results

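The mitosis and G2/M genes described here are 43 genes of cell division, chosen by symbol out of 23235 symbols in an expression table from granulosa cells of the mouse ovary, which surround the oocyte and nourish it. They fall into 9 roles, from the CDK1 engine to cytokinesis, and all 43 passed the filter on low values, which kept 13688 genes. RNA came from female C57BL/6 mice in 8 libraries, in 4 groups of 2. The groups were CNOT6/6L knockout (KO, named Cnot66l DKO at the source) taken 44 h after PMSG, a hormone preparation that acts like FSH on the follicle, wild type (WT) taken 44 h after PMSG, KO with no treatment (0 h) and WT with no treatment (0 h). CNOT6 and CNOT6L are deadenylases of the CCR4-NOT complex, which shortens the poly(A) tails of mRNAs. The labels gave no PMSG dose, no age, no account of how the deletion was made and no statement of whether the replicates of a group came from separate animals. The p-values below thus reflect the spread among these libraries alone, and that spread may be technical.

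Granulosa cells divide while a follicle grows and leave the cell cycle as they differentiate towards steroid production. Transcripts of the G2/M programme build up through S phase and G2, peak as cells enter mitosis and are cleared afterwards, so their level in a mixed cell population follows both the share of cells in G2 or mitosis and the transcript number per cell. Many promoters of these genes carry a CHR element (cell cycle genes homology region), which is bound by MuvB-based complexes that repress the genes in quiescent cells and activate them in G2, often next to CCAAT boxes that bind NF-Y.

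The promoters of 5 members with large values or large differences in these data are shown, 150 bases before to 30 bases after the transcription start, so that both elements can be seen where they stand. The sequences are from RefSeq on GRCm38.p6, run 5′ to 3′ along the gene's strand, which is the minus strand for all 5, and the capitals mark TTTGAA or TTTAAA (forms of the CHR) and CCAAT on either strand, where the other strand reads TTCAAA for the first and ATTGG for the last. The form TTTAAA reads the same on both strands. In these 5 stretches the CHR forms and CCAAT share no base, and elsewhere the last T of CCAAT can be the first of a CHR form. Hmmr lies at chr11:40733408-40733587, Kif23 at chr9:61946770-61946949, Ccnb2 at chr9:70421525-70421704, Ccnb1 at chr13:100786457-100786636 and Pttg1 at chr11:43425952-43426131.
Hmmr: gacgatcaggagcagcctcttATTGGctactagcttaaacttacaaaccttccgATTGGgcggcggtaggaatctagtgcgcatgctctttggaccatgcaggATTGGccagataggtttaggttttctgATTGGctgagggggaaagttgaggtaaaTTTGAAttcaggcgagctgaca
Kif23: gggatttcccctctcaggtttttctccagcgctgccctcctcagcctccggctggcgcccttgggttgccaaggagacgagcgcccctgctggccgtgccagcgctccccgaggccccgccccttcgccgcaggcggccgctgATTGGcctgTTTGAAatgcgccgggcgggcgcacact
Ccnb2: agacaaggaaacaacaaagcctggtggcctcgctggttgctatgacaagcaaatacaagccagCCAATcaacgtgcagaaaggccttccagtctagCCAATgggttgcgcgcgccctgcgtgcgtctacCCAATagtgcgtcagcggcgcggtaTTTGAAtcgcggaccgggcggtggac
Ccnb1: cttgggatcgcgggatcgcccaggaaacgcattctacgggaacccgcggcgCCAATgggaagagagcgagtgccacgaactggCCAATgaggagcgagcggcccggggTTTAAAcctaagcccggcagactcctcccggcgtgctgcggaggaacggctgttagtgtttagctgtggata
Pttg1: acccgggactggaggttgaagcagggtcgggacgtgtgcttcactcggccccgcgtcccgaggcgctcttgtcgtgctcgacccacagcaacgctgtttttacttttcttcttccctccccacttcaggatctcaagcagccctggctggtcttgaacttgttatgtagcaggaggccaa

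Hmmr held 1 TTTGAA and 4 CCAAT in this stretch, Kif23 held 1 TTTGAA and 1 CCAAT, Ccnb2 held 1 TTTGAA and 3 CCAAT, and Ccnb1 held 1 TTTAAA and 2 CCAAT. Pttg1 held neither, which says only that these letters are not in that stretch. RefSeq windows of 250 bases before to 50 after the start were at hand for 36 of the 43 members (39 windows), and not for Aurkb, Dlgap5, Ccna2, Kif20a, Incenp, Cdc25c and Tpx2. TTTGAA stood in 30 of these 39 windows (76.9%), against 17.9% of all 32851 windows and 12.2% of the 12259 windows of genes tested here. CCAAT stood in 79.5% of the members' windows, against 37.4% of all windows. A CHR form and CCAAT stood together in 74.4%, against 10.7%. Mad2l1, Nuf2, Nusap1 and Pttg1 had neither element in the window. A match is a description of letters, not a bound site.

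The libraries were close in depth, at 0.904 to 1.25 of the median library, and the table gave FPKM, fragments scaled to transcript length and library size. The targeted gene Cnot6 had 26.7 and 17.4 FPKM in KO at 44 h, against 26.0 and 26.9 in WT at 44 h, and 11.7 and 12.0 FPKM in KO at 0 h, against 29.1 and 18.4 in WT at 0 h. Cnot6l had 2.01 and 1.61 FPKM in KO at 44 h, against 4.20 and 2.63 in WT at 44 h, and 4.69 and 1.97 FPKM in KO at 0 h, against 6.11 and 7.07 in WT at 0 h. The library labelled KO replicate 1 at 44 h lay within the WT range of Cnot6, and neither gene passed the test (limma, Benjamini-Hochberg adjusted p = 0.396 and 0.487 at 0 h, 0.723 and 0.564 at 44 h). That library also stood apart in 4 genes that PMSG raises in granulosa cells (Lhcgr, Cyp11a1, Star and Cyp19a1), which summed to 185 FPKM in it and 2969 FPKM in KO replicate 2 at 44 h, against 4979 and 4982 FPKM in WT at 44 h. Medians or counts over the members are therefore also given without it in the comparisons that use KO at 44 h. The fitted differences of single genes include it. Granulosa markers were present throughout (Inha at 8434 to 23238 FPKM, Foxl2 at 14.1 to 25.2 FPKM), and so were oocyte transcripts, with Gdf9 at 228 to 1200 FPKM.

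Oocyte markers differed between the groups in the same comparisons as the mitotic genes. All 27 in the table were above 0 in every library, and they summed to 4564 and 2697 FPKM in KO at 44 h, against 1913 and 1918 FPKM in WT at 44 h, and to 9498 and 8170 FPKM in KO at 0 h, against 3420 and 5816 FPKM in WT at 0 h. Of the 26 tested, 26 lay higher in KO at both times, against 55.5% of all genes at 44 h and 54.7% at 0 h. Their medians were 0.86 (log2) at 44 h and 0.92 at 0 h, and limma called 0 of them between the genotypes at either time. Averaged over the genotypes, 26 passed the test as lower at 44 h than at 0 h (median -1.22), against 12.4% of all genes. The 43 mitotic genes summed to 3653 and 3171 FPKM in KO at 44 h, against 2480 and 2690 FPKM in WT at 44 h, and to 4040 and 4137 FPKM in KO at 0 h, against 3206 and 3710 FPKM in WT at 0 h. The 12 granulosa markers summed to 29842 and 23665 FPKM in KO at 44 h, against 17456 and 20736 FPKM in WT at 44 h, and to 14892 and 15108 FPKM in KO at 0 h, against 14960 and 12979 FPKM in WT at 0 h. The 14 immune markers in the table summed to 425 and 448 FPKM in KO at 44 h, against 330.2 and 243 FPKM in WT at 44 h, and to 967 and 175 FPKM in KO at 0 h, against 255 and 231 FPKM in WT at 0 h. The granulosa and immune sums thus lay higher in KO at 44 h as well, and at 0 h the 2 KO libraries were far apart in immune markers. Inha made up much of the granulosa sum, with 23238 and 13862 FPKM in KO and 10434 and 13006 in WT at 44 h. At 44 h, 3 of the 12 granulosa markers and 7 of the 11 immune markers tested lay higher in KO without overlap, against 23.9% of all genes. The part of oocyte, granulosa or immune cell RNA in the mitotic gene differences was not tested. In such bulk samples, fewer cells of a type and less RNA per cell cannot be told apart.

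**Figure D1:**
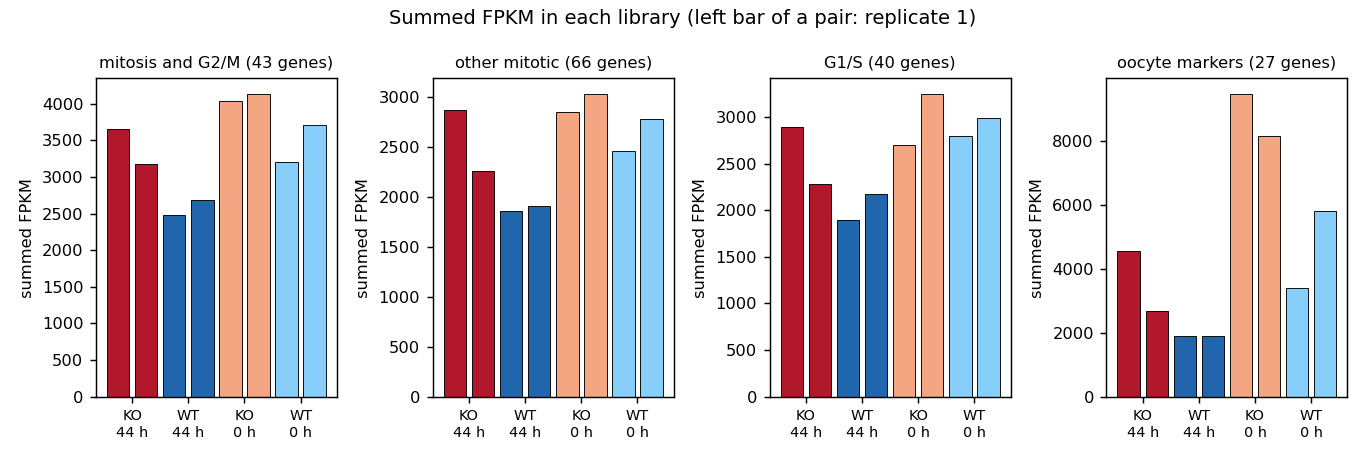
Summed FPKM (vertical axis, from 0) of the 43 mitosis and G2/M genes, 66 other mitotic genes, 40 G1/S genes and 27 oocyte markers in each of the 8 libraries, with 1 bar per library. The mitosis and G2/M sum is lowest in the 2 WT libraries at 44 h (2480 and 2690 FPKM), and the oocyte sum is highest in the 2 KO libraries at 0 h (9498 and 8170 FPKM).

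The mitotic genes were not at trace levels. Pttg1, which encodes securin, the inhibitor of separase, was the most abundant member, at 209.7 to 583 FPKM over the 8 libraries, and Espl1, which encodes separase itself, was the least abundant, at 2.06 to 6.20 FPKM. Group means ran in the order KO 0 h, WT 0 h, KO 44 h, WT 44 h from high to low in 21 of 43 members (48.8%), against 20.4% of all genes tested, and in 26 of the 26 oocyte markers. The next most frequent order put KO 44 h above WT 0 h, in 10 members. Against the WT 0 h mean, the median member lay at -0.03 and -0.10 (log2) in KO at 44 h, at -0.46 and -0.44 in WT at 44 h, at 0.14 and 0.18 in KO at 0 h and at -0.12 and 0.12 in WT at 0 h. The 2 WT libraries at 44 h were thus the lowest, and the 2 KO libraries at 44 h lay within the spread of the 2 WT libraries at 0 h.

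**Figure D2:**
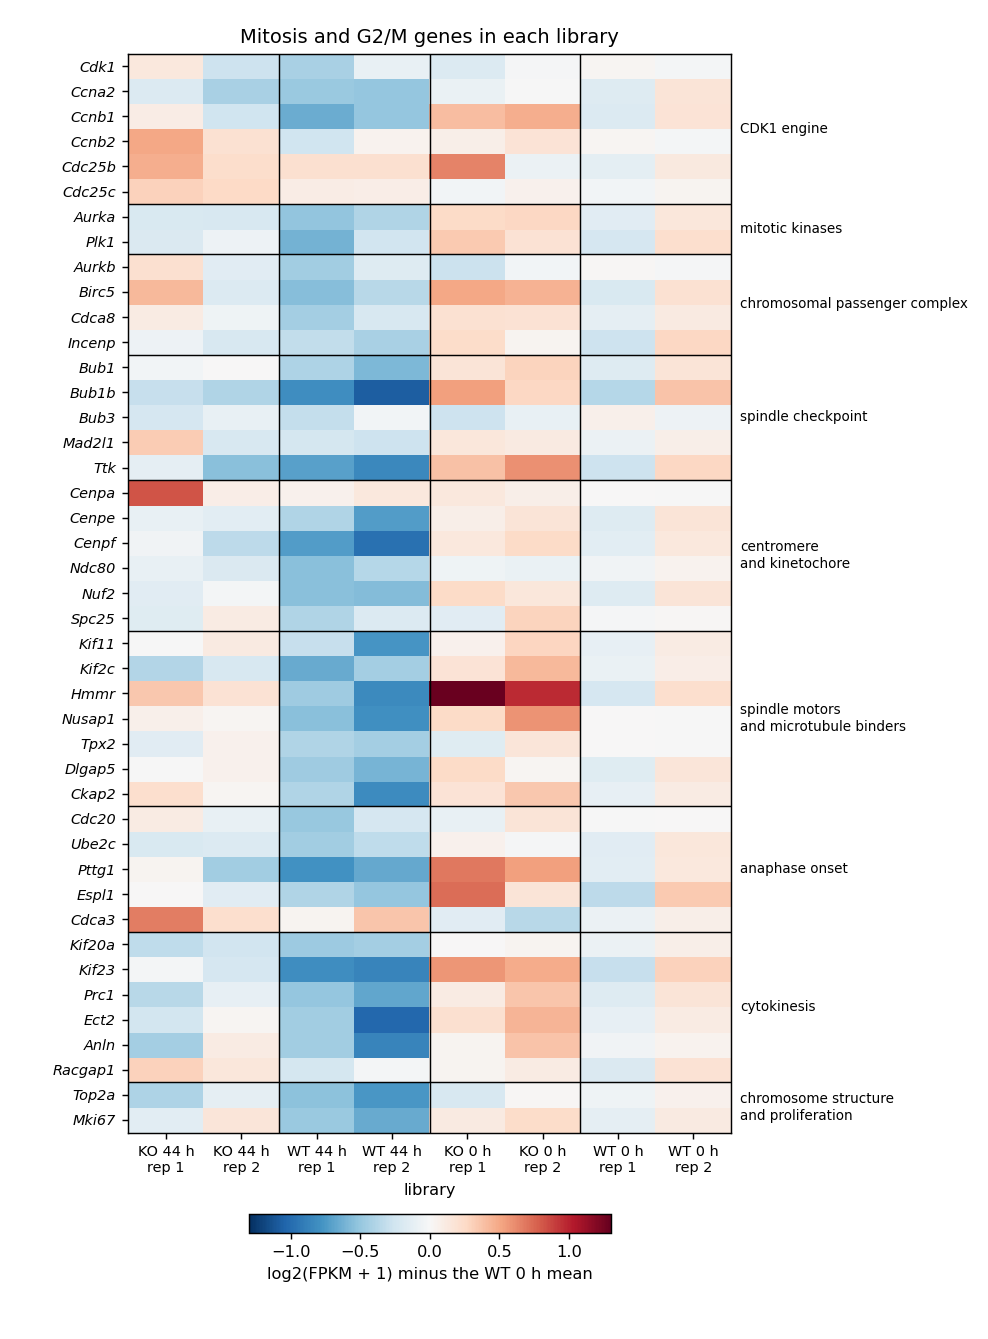
Level of each of the 43 genes (rows, grouped by role) in each of the 8 libraries (columns), as log2(FPKM + 1) minus the WT 0 h mean; red is higher and blue is lower. The WT 44 h columns are blue for most genes, with medians of -0.46 and -0.44, and the KO 44 h columns are near white, with medians of -0.03 and -0.10.

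At 44 h after PMSG, transcripts for spindle and cytokinesis proteins lay higher in KO than in WT, and no single member passed the test. Hmmr, which encodes a microtubule-binding protein of the spindle, had 62.3 and 55.6 FPKM in KO, against 35.1 and 27.0 FPKM in WT. Nusap1, whose product bundles spindle microtubules, had 62.3 and 60.4 FPKM in KO, against 40.6 and 33.9 FPKM in WT. Kif23, the kinesin of centralspindlin, had 40.0 and 34.8 FPKM in KO, against 22.9 and 22.0 FPKM in WT. Both KO libraries lay above both WT libraries for each of the 3 genes. On the log2(FPKM + 1) scale, where fold changes of weakly expressed genes come out too small, the differences were 0.91 for Hmmr (SE 0.22, 1.88-fold), 0.71 for Nusap1 (SE 0.17, 1.64-fold) and 0.71 for Kif23 (SE 0.21, 1.63-fold), with limma adjusted p = 0.457, 0.457 and 0.494.

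The fitted difference at 44 h was above 0 in 43 of 43 members (42 with median-of-ratios scaling, where Bub3 turned below 0), against 55.5% of all genes, with a median of 0.37 (log2) against 0.05 over all genes. Both KO libraries lay above both WT libraries in 39 members, 90.7% against 23.9% of all genes, and the other 4 (Cdk1, Bub3, Cenpa and Cdca3) overlapped. Limma called 0 of 43 at an adjusted p under 0.05, where 0.0219% of all genes were called. At an unadjusted p under 0.05, 16 members were higher (37.2%), against 6.69% of all genes. They were Ccnb1, Ccnb2, Birc5, Bub1, Bub1b, Cenpf, Nuf2, Kif11, Hmmr, Nusap1, Dlgap5, Ckap2, Pttg1, Kif23, Ect2 and Mki67. The library labelled KO replicate 1 alone lay above both WT libraries in 42 members and KO replicate 2 alone in 39, and neither lay below both WT libraries in any. The median was 0.30 without KO replicate 1 and 0.45 without KO replicate 2.

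**Figure D3:**
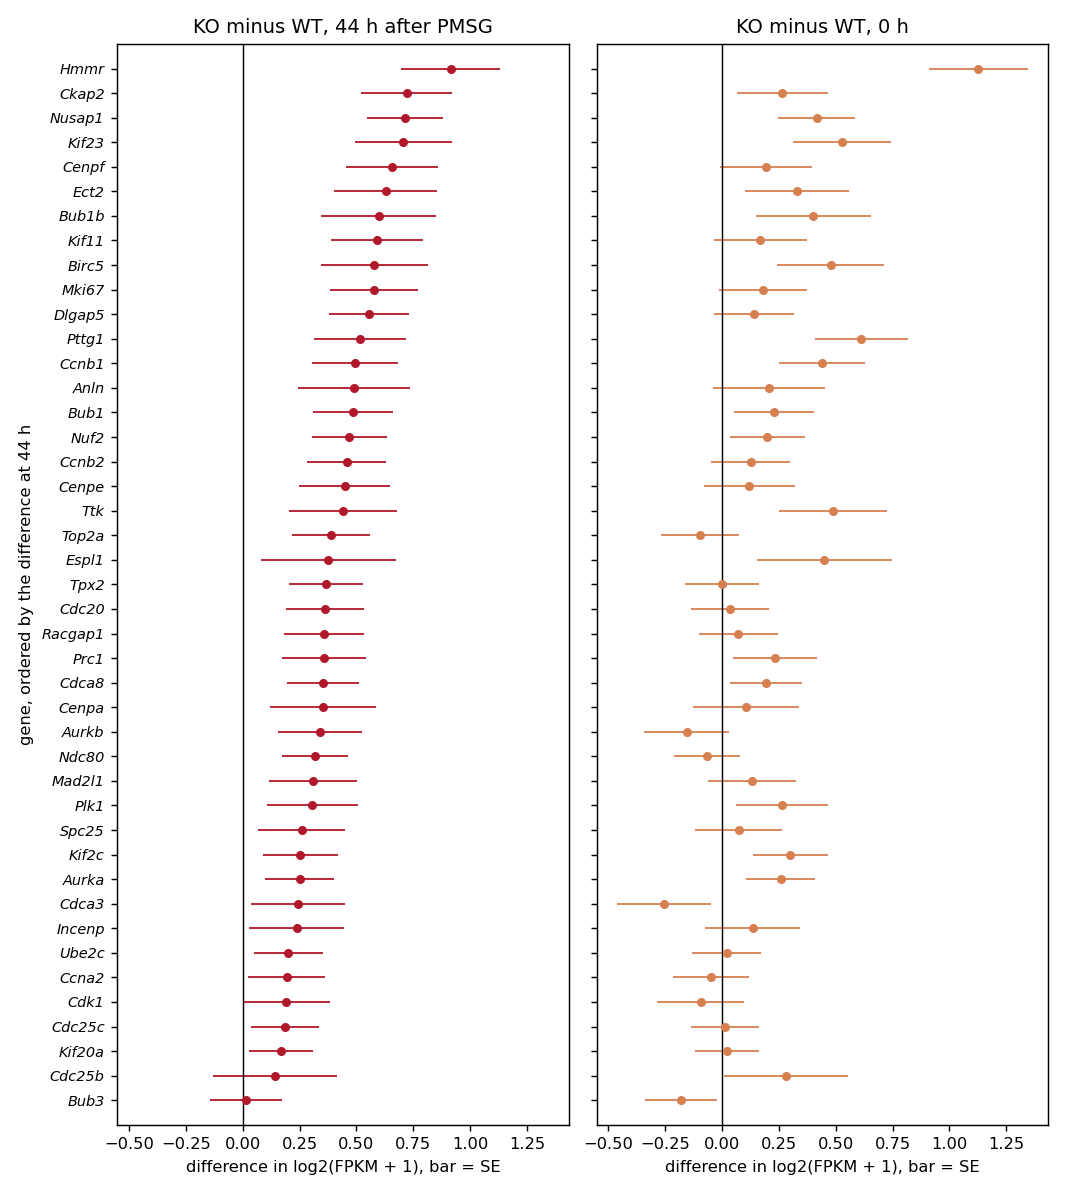
KO minus WT difference in log2(FPKM + 1) for the 43 genes (points, with SE as bars), at 44 h on the left and at 0 h on the right, ordered by the value at 44 h. All 43 points lie above 0 at 44 h, up to 0.91 for Hmmr, and 36 of 43 lie above 0 at 0 h.

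Without PMSG, Hmmr again stood furthest apart. It had 120.0 and 96.3 FPKM in KO, against 41.7 and 56.7 FPKM in WT. Pttg1 had 583 and 525 FPKM in KO, against 330.0 and 396 FPKM in WT. Both KO libraries lay above both WT libraries for both genes, with differences of 1.13 (log2, SE 0.22, 2.18-fold) for Hmmr and 0.61 (SE 0.20, 1.53-fold) for Pttg1 and limma adjusted p = 0.271 and 0.442. Nusap1 had 71.1 and 89.5 FPKM in KO, against 59.9 and 59.2 FPKM in WT (0.42, SE 0.17). Kif23 had 61.1 and 57.2 FPKM in KO, against 32.8 and 50.4 FPKM in WT (0.53, SE 0.21). These 4 genes were the members with an unadjusted p under 0.05, and all 4 had KO libraries above WT libraries without overlap.

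The fitted difference at 0 h was above 0 in 36 members and below 0 in 7, against 54.7% of all genes above 0, and the split was 29 above and 14 below with median-of-ratios scaling. Those that turned below 0 were Cdc25c, Spc25, Tpx2, Cdc20, Ube2c, Kif20a and Racgap1. The median was 0.18, against 0.03 over all genes. Limma called 0 of 43, where 0.0365% of all genes were called, and 4 members (9.3%) had an unadjusted p under 0.05 as higher, against 7.55% of all genes. Libraries did not overlap in 16 members higher in KO (37.2%, against 27.3% of all genes) and in 4 lower in KO (Aurkb, Bub3, Ndc80 and Cdca3, against 19.1% of all genes). The median was 0.06 when WT replicate 1 was left out and 0.30 when WT replicate 2 was.

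Averaged over both times, 41 members lay higher in KO, against 54.7% of all genes, with a median of 0.28 against 0.03 over all genes, and 40 did with median-of-ratios scaling, where Cdk1 turned below 0. Hmmr had the smallest adjusted p (1.02, SE 0.15, limma adjusted p = 0.074), followed by Nusap1 (0.56, SE 0.12, adjusted p = 0.115) and Kif23 (0.62, SE 0.15, adjusted p = 0.139). Limma called 0 of 43, where 0.11% of all genes were called, and 20 had an unadjusted p under 0.05 as higher (46.5%, against 12.6% of all genes). In 15 members (34.9%, against 13.5% of all genes) both KO libraries lay above both WT libraries at each time, among them Ccnb1, Aurka, Birc5, Kif2c, Ckap2 and Ttk. With the library labelled KO replicate 1 at 44 h left out, the median was 0.27 and limma called 0 members, as it did with each other library left out except KO replicate 2 at 44 h. With that one left out, so that KO at 44 h rested on the library labelled replicate 1, limma called 6 as higher in KO (Birc5, Ccnb1, Cenpa, Hmmr, Nusap1 and Pttg1), where 10.4% of all genes were called.

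**Figure D4:**
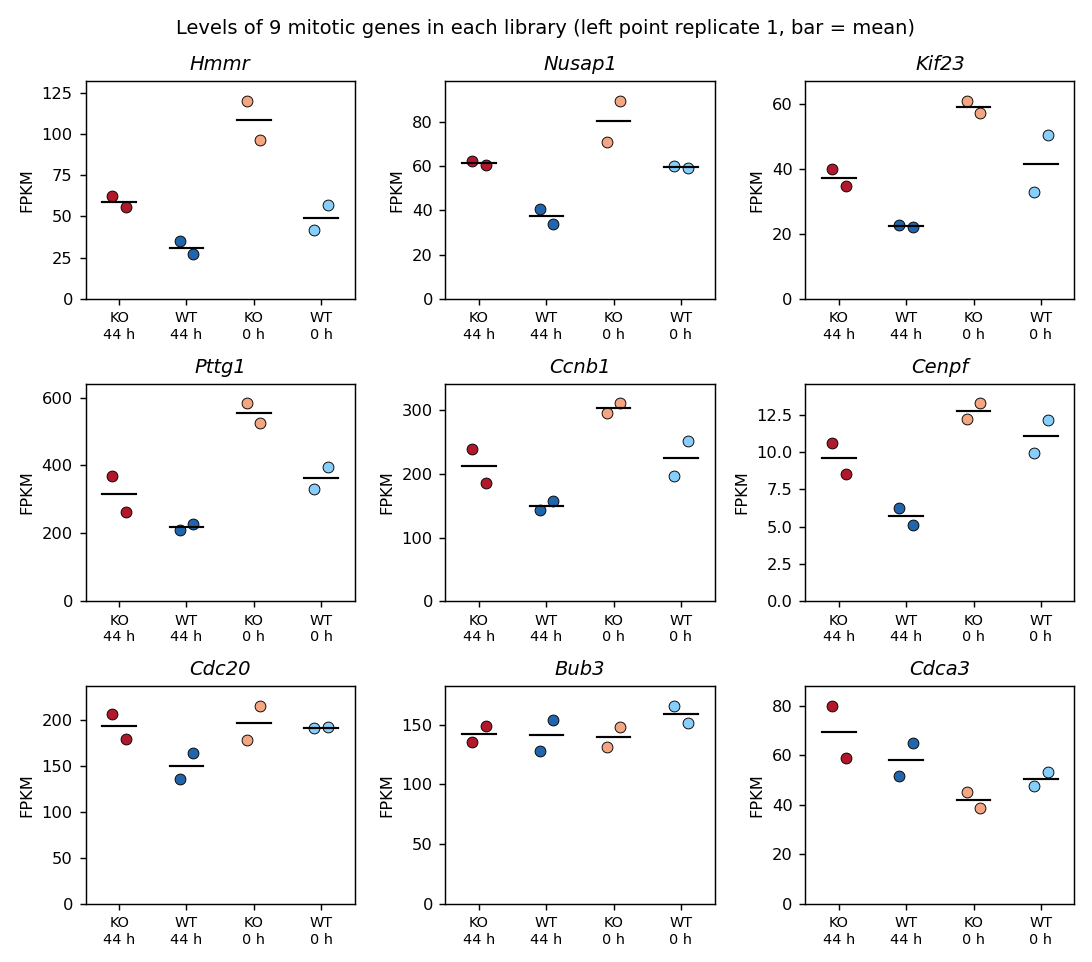
FPKM (vertical axes, from 0) of 9 of the genes in each library, with 2 points per group and a bar at the mean. Hmmr, Nusap1, Kif23, Pttg1, Ccnb1 and Cenpf lie higher in KO than in WT at both times without overlap, Cdc20 does so at 44 h, and Bub3 and Cdca3 overlap at 44 h.

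In WT, the members lay lower 44 h after PMSG than without it. Bub1b, which encodes the checkpoint kinase-like protein BubR1, had 46.0 and 38.1 FPKM at 44 h, against 62.9 and 105 FPKM at 0 h (-0.94, SE 0.25). Cenpf, a large kinetochore protein, had 6.26 and 5.15 FPKM at 44 h, against 9.96 and 12.2 FPKM at 0 h (-0.85, SE 0.20). Top2a, the topoisomerase that untangles sister chromatids, had 51.5 and 43.7 FPKM at 44 h, against 72.2 and 77.6 FPKM at 0 h (-0.65, SE 0.17). Both 44 h libraries lay below both 0 h libraries for all 3 genes, and their limma adjusted p were 0.111, 0.104 and 0.111. The fitted change was below 0 in 39 members, or 37 with median-of-ratios scaling, where Ccnb2 and Racgap1 turned above 0. The median was -0.46, against -0.13 over all genes, of which 61.9% were below 0. Libraries did not overlap in 36 members lower at 44 h (83.7%, against 40.6% of all genes) and in 3 higher (Cdc25b, Cdc25c and Cenpa, against 22.5% of all genes). Limma called 0 of 43, where 0.0804% of all genes were called, and 26 had an unadjusted p under 0.05 as lower (60.5%, against 15.8% of all genes). With the WT groups alone, limma called Pttg1 as lower, where 6.9% of all genes were called.

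In KO, the median change with PMSG was closer to 0, with Hmmr and Pttg1 lower and Cdca3 higher at 44 h. Hmmr, with the values above, was at -0.86 (SE 0.22) and Pttg1 had 370.2 and 264 FPKM at 44 h, against 583 and 525 FPKM at 0 h (-0.82, SE 0.20). Cdca3, which encodes a cell cycle protein degraded through the anaphase-promoting complex, had 80.1 and 58.8 FPKM at 44 h, against 45.2 and 38.8 FPKM at 0 h (0.70, SE 0.21). The limma adjusted p were 0.117, 0.114 and 0.139, and the libraries of the times did not overlap for any of the 3. The fitted change was below 0 in 34 members and above 0 in 9, or in 26 and 17 with median-of-ratios scaling, where Mad2l1, Ndc80, Spc25, Kif11, Tpx2, Dlgap5, Ckap2 and Cdc20 turned above 0. The median was -0.23, against -0.11 over all genes, of which 60.6% were below 0, and the libraries did not overlap in 24 members lower at 44 h (55.8%, against 34.1% of all genes). Limma called 0 of 43, where 0.139% of all genes were called, and at an unadjusted p under 0.05, 9 members were lower (20.9%, against 15.4% of all genes) and 1, Cdca3, was higher (2.33%, against 5.63% of all genes). With the library labelled KO replicate 1 at 44 h left out, the median was -0.24, and without KO replicate 2 it was -0.22. The change of Pttg1 in KO ranged from -1.06 to -0.58 with 1 library left out.

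Averaged over both genotypes, 14 members fell with PMSG (limma adjusted p = 0.0229 to 0.0486). They were Pttg1 (-0.77, SE 0.14), Hmmr (-0.75, SE 0.15), Kif23 (-0.74, SE 0.15), Kif2c, Ttk, Bub1b, Nusap1, Cenpf, Aurka, Ccnb1, Prc1, Kif20a, Ect2 and Nuf2, with log2 changes of -0.39 (Kif20a) to -0.84 (Bub1b). They made up 32.6% of the members, against 12.4% of all genes called as lower, and 0 were called as higher, against 5.06% of all genes. The cytokinesis genes held 4 of the 14, the spindle genes 3, the checkpoint and kinetochore genes 2 each, the CDK1 engine, the mitotic kinases and the anaphase genes 1 each, and the passenger complex and the chromosome genes 0. The fitted change was below 0 in 37 members (34 with median-of-ratios scaling, where Cdk1, Aurkb and Bub3 turned above 0), with a median of -0.37 against -0.12 over all genes, of which 61.6% were below 0. That scaling moved the median of all genes up by 0.12 in WT, 0.14 in KO and 0.13 on average. With it, 5 members were called as lower (Bub1b, Hmmr, Kif23, Pttg1 and Ttk), where 13.4% of all genes were called in either direction. Limma called 0 members without WT replicate 2 at 0 h, either WT library at 44 h or either KO library at 0 h, where it called 26 to 117 of all genes in place of 2396. It called 6 when WT replicate 1 at 0 h was left out, 14 when the library labelled KO replicate 1 at 44 h was (12 of them shared) and 17 when KO replicate 2 at 44 h was (13 shared, with Cdca3 and Cenpa as higher).

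Most theca and stroma, surface epithelium, endothelial and oviduct markers had a fitted PMSG change above 0 averaged over the genotypes, against 5260 of all 13688 genes. The number called is given below for each list, and 5.06% of all genes were called as higher. The 10 theca and stroma markers summed to 249.9 and 371 FPKM in KO and 334 and 306 FPKM in WT at 44 h, against 153 and 110.2 FPKM in KO and 117 and 126 FPKM in WT at 0 h, and 10 of 10 had a fitted change above 0 (2 called). The 8 surface epithelium markers summed to 136 and 443 FPKM in KO and 227 and 229 FPKM in WT at 44 h, against 142 and 114 FPKM in KO and 175 and 142 FPKM in WT at 0 h, with 8 of 8 changes above 0 (0 called). Theca and stroma sums did not overlap between the times, and the surface epithelium sum was highest in KO replicate 2 at 44 h. The 8 endothelial markers summed to 9.40 and 30.6 FPKM in KO and 20.7 and 26.3 FPKM in WT at 44 h, against 19.0 and 14.1 FPKM in KO and 7.69 and 12.9 FPKM in WT at 0 h, with 5 of the 6 tested above 0 (1 called). The 6 oviduct and ciliated markers summed to 10.03 and 314 FPKM in KO and 379 and 13.2 FPKM in WT at 44 h, against 73.9 and 15.3 FPKM in KO and 8.70 and 18.6 FPKM in WT at 0 h, with 4 of the 5 tested above 0 (0 called). In oviduct markers KO replicate 2 and WT replicate 1 at 44 h thus stood apart from their replicates, while in endothelial markers the libraries of the times overlapped in KO. None of the markers in these 4 lists was at 0 in any library. Erythroid markers went the other way, with 4 of the 4 tested below 0 (median -0.71, 0 called). The 6 in the table summed to 40.2 and 189 FPKM in KO and 361 and 339 FPKM in WT at 44 h. At 0 h they summed to 953 and 108 FPKM in KO and 687 and 99.1 FPKM in WT. The part of all these cell types in the fall of the mitotic genes was not tested.

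**Figure D5:**
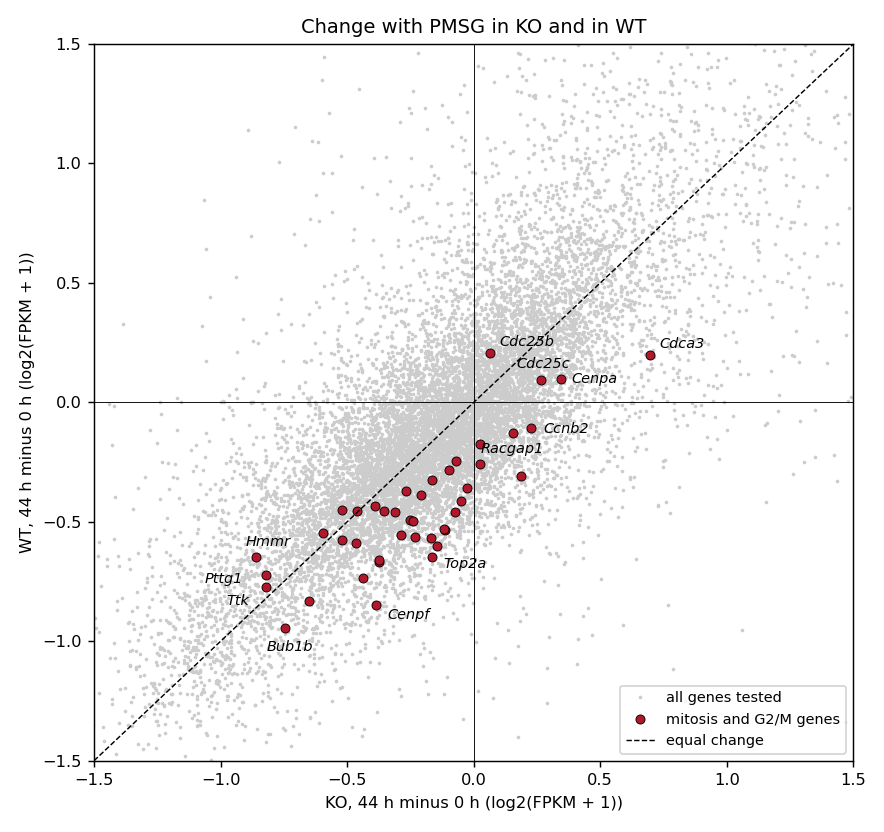
Change from 0 h to 44 h of PMSG in log2(FPKM + 1), in KO (horizontal axis) against WT (vertical axis), for the 43 genes (red) and all genes tested within the axes (grey), with a dashed line of equal change. Most red points lie at negative values on both axes and below the dashed line, with Hmmr, Pttg1, Bub1b and Ttk lowest in KO, and Cdca3 furthest right at 0.70.

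The difference between the PMSG changes (KO minus WT) was above 0 in 36 members and below 0 in 7, with a median of 0.24 against -0.01 over all genes, of which 49.2% were above 0. With median-of-ratios scaling 37 lay above 0 and 6 below, since Aurka turned above 0. Cdca3 (0.50, SE 0.29), Aurkb (0.49, SE 0.26) and Top2a (0.48, SE 0.24) had the highest values and Hmmr the lowest (-0.21, SE 0.31). Limma called 0 of 43, where 0.0438% of all genes were called, and 0 members had an unadjusted p under 0.05, against 1.82% of all genes. A difference between the genotypes in their response to PMSG was thus not detected for any member, and the median was 0.19 when the library labelled KO replicate 1 at 44 h was left out, 0.24 when KO replicate 2 at 44 h was (0 called in both) and 0.10 without WT replicate 2 at 0 h. The comparisons share libraries: WT at 44 h, for example, enters the genotype difference at 44 h and the PMSG change in WT with opposite sign, so their values are given side by side and are not independent.

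Within the CDK1 engine, the cyclin B1 transcript fell with PMSG and that of cyclin B2 did not pass the test. Ccnb1, the cyclin that drives entry into mitosis with CDK1, had 239 and 186 FPKM in KO and 143 and 157 in WT at 44 h, and 295 and 311 FPKM in KO and 198 and 253 in WT at 0 h. Ccnb2, its close relative, had 303 and 244 FPKM in KO and 178 and 219 in WT at 44 h, and 224 and 241 FPKM in KO and 216 and 209.7 in WT at 0 h. Both genes lay higher in KO without overlap at both times (0.49, SE 0.19, and 0.46, SE 0.17, at 44 h). Ccnb1 fell with PMSG on average (-0.55, SE 0.13, limma adjusted p = 0.0367), and Ccnb2 was at 0.06 (SE 0.12, adjusted p = 0.755), or below 0 with quantile normalization. Whether the 2 cyclins differ in that change was not tested. Cdk1, the kinase itself, had 86.7 and 65.4 FPKM in KO and 58.7 and 73.9 in WT at 44 h, and 69.9 and 78.2 FPKM in KO and 80.4 and 77.6 in WT at 0 h. Its KO and WT libraries overlapped at both times (0.19, SE 0.19, at 44 h). Ccna2, cyclin A2, lay between 53.8 and 86.2 FPKM, and the phosphatases that activate CDK1 were lower, Cdc25c at 13.8 to 17.7 FPKM and Cdc25b at 3.73 to 7.03 FPKM.

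Both mitotic kinases lay higher in KO at 44 h. Aurka, which matures centrosomes and helps build the spindle, had 79.1 and 78.5 FPKM in KO and 63.4 and 69.0 in WT at 44 h, and 108 and 109.6 FPKM in KO and 81.9 and 101 in WT at 0 h. Plk1, which acts from mitotic entry to cytokinesis, had 77.4 and 84.1 FPKM in KO and 57.0 and 74.2 in WT at 44 h, and 112 and 101 FPKM in KO and 75.8 and 102 in WT at 0 h. KO lay above WT without overlap at 44 h for both genes, and at 0 h for Aurka. Aurka fell with PMSG on average (-0.46, SE 0.11, limma adjusted p = 0.0335), and Plk1, at -0.41 (SE 0.14), had an adjusted p of 0.0875.

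In the chromosomal passenger complex, which corrects faulty attachments of chromosomes to the spindle, 4 of 4 genes lay higher in KO at 44 h without overlap (median 0.35), against 23.9% of all genes, and 0 were called as lower with PMSG, against 12.4% of all genes. Birc5, survivin, had 339 and 223 FPKM in KO and 172 and 197 in WT at 44 h, and 358 and 347 FPKM in KO and 220.1 and 289.6 in WT at 0 h. Cdca8, borealin, had 127 and 113 FPKM in KO and 86.3 and 102 in WT at 44 h, and 135 and 134 FPKM in KO and 108 and 128 in WT at 0 h. Both lay higher in KO at both times, by 0.58 (SE 0.24) and 0.35 (SE 0.16) at 44 h. Aurkb, the kinase of the complex, went the other way at 0 h, with 53.4 and 63.4 FPKM in KO and 65.8 and 64.2 in WT, and had 75.1 and 58.6 FPKM in KO and 47.2 and 57.8 in WT at 44 h. Its difference was 0.34 (SE 0.19) at 44 h and -0.16 (SE 0.19) at 0 h, with limma adjusted p = 0.57 and 0.872. Incenp, the scaffold, lay between 21.4 and 35.3 FPKM.

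Among the spindle checkpoint genes, which hold anaphase until every chromosome is attached, Bub3 stood apart from its partners. Bub3 had 136 and 148 FPKM in KO and 128 and 154 in WT at 44 h, and 131 and 148 FPKM in KO and 166 and 151 in WT at 0 h. Its KO and WT libraries overlapped at 44 h (0.02, SE 0.16), and its KO libraries lay lower at 0 h (-0.18, SE 0.16). Bub1b had 65.8 and 62.0 FPKM in KO at 44 h, and 118 and 98.1 FPKM in KO at 0 h, beside the WT values above, so its KO libraries were higher without overlap at 44 h only (0.60, SE 0.25). Ttk, the kinase at the top of the checkpoint, had 24.2 and 17.7 FPKM in KO and 15.8 and 14.3 in WT at 44 h, and 34.6 and 40.4 FPKM in KO and 21.7 and 32.0 in WT at 0 h. Bub1b and Ttk fell with PMSG on average, by 0.84 and 0.80 on the log2 scale (SE 0.18 and 0.17, limma adjusted p = 0.0276 and 0.0274). Mad2l1, the effector that inhibits CDC20, had 107 and 72.9 FPKM in KO and 72.0 and 70.1 in WT at 44 h, and 93.9 and 91.3 FPKM in KO and 80.3 and 88.8 in WT at 0 h. Its 2 KO libraries at 44 h differed by more than its group means did, and Bub1 lay between 15.5 and 29.3 FPKM.

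At the centromere and kinetochore, Cenpa, the histone variant that marks centromeres, had 174 and 104 FPKM in KO and 102 and 108 in WT at 44 h, and 108 and 103 FPKM in KO and 98.9 and 97.6 in WT at 0 h. One library, the one labelled KO replicate 1 at 44 h, was high, and the other 7 lay between 97.6 and 108 FPKM. Cenpa was the member with the largest gap between these 2 KO libraries (1.67-fold). Its KO minus WT difference at 44 h ranged from -0.015 to 0.72 over the alternatives. Cenpf had 10.6 and 8.52 FPKM in KO at 44 h and 12.2 and 13.3 FPKM in KO at 0 h, beside the WT values above, higher in KO at both times (0.66, SE 0.20, at 44 h). Spc25 and Ndc80 encode partners in the kinetochore complex that binds microtubules. Spc25 had 136 and 163 FPKM in KO and 115 and 134 in WT at 44 h, and 137 and 186 FPKM in KO and 150.2 and 153 in WT at 0 h. Ndc80 had 29.3 and 27.4 FPKM in KO and 21.2 and 24.0 in WT at 44 h, and 30.2 and 29.6 FPKM in KO and 30.3 and 32.5 in WT at 0 h. For both, KO lay above WT at 44 h without overlap (0.26, SE 0.19, and 0.32, SE 0.15), whereas at 0 h Spc25 overlapped and Ndc80 lay lower in KO. Nuf2, another subunit of that complex, had 35.0 and 38.2 FPKM in KO and 26.3 and 26.0 in WT at 44 h, and 46.5 and 43.2 FPKM in KO and 34.4 and 43.9 in WT at 0 h. Nuf2 fell with PMSG on average (-0.42, SE 0.12, limma adjusted p = 0.0486), as did Cenpf (-0.62, SE 0.14, adjusted p = 0.0327), and Cenpe, the kinetochore kinesin, lay between 7.23 and 14.4 FPKM.

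The spindle motors and microtubule binders had the highest median difference of the 9 roles between KO and WT at 44 h (0.59), with 7 of 7 genes higher in KO without overlap, against 23.9% of all genes. Kif2c, a kinesin that takes microtubules apart, had 49.1 and 55.8 FPKM in KO and 40.7 and 47.2 in WT at 44 h, and 73.1 and 86.5 FPKM in KO and 60.7 and 68.4 in WT at 0 h. Ckap2, a spindle-associated protein, had 25.4 and 22.2 FPKM in KO and 16.4 and 12.0 in WT at 44 h, and 24.7 and 28.1 FPKM in KO and 20.2 and 23.5 in WT at 0 h. Dlgap5, which stabilises the fibres that hold chromosomes, had 29.7 and 31.1 FPKM in KO and 21.5 and 19.3 in WT at 44 h, and 35.8 and 30.5 FPKM in KO and 26.6 and 33.6 in WT at 0 h. The 44 h differences were 0.25 (SE 0.16) for Kif2c, 0.72 (SE 0.20) for Ckap2 and 0.55 (SE 0.17) for Dlgap5, and at 0 h Dlgap5 overlapped. With PMSG, Kif2c, Hmmr and Nusap1 fell on average (Kif2c -0.57, SE 0.12, limma adjusted p = 0.0264), and Ckap2 and Dlgap5, at -0.37 and -0.32, did not pass. Kif11, the motor that pushes the spindle poles apart, lay between 13.6 and 29.0 FPKM, and Tpx2, the activator of Aurora A, between 38.2 and 58.4 FPKM.

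Among the genes of anaphase onset, securin lay far above separase. Pttg1 had 370.2 and 264 FPKM in KO and 209.7 and 228 in WT at 44 h (0.51, SE 0.20), and Espl1 had 3.36 and 2.91 FPKM in KO and 2.31 and 2.06 in WT at 44 h (0.38, SE 0.30). Cdc20, the activator of the anaphase-promoting complex, had 207 and 179 FPKM in KO and 136 and 164 in WT at 44 h, and 179 and 215 FPKM in KO and 191 and 193 in WT at 0 h. KO lay above WT at 44 h for all 3 without overlap, and Cdc20 overlapped at 0 h. In WT, Cdca3 had 51.5 and 64.9 FPKM at 44 h and 47.5 and 53.2 FPKM at 0 h, so its KO libraries at 44 h, given above, overlapped those of WT, and at 0 h its KO libraries were lower. With PMSG averaged over the genotypes Pttg1 fell, and Cdca3 was at 0.45 (SE 0.15, limma adjusted p = 0.0733), the highest value of the 43. Ube2c, the ubiquitin-conjugating enzyme of the same complex, lay between 141 and 213 FPKM.

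In cytokinesis, 6 of 6 genes lay higher in KO at 44 h without overlap (median 0.42), against 23.9% of all genes, and 4 of 6 fell with PMSG, against 12.4% of all genes. With median-of-ratios scaling, quantile normalization or no filter, 1 of the 6, Kif23, was called, where 13.4%, 13.7% and 5.57% of all genes were called. Prc1, which bundles the microtubules of the central spindle, had 66.2 and 79.4 FPKM in KO and 60.0 and 53.0 in WT at 44 h, and 92.0 and 109.6 FPKM in KO and 76.0 and 95.7 in WT at 0 h. Ect2, the exchange factor that switches on RhoA at the cleavage site, had 28.6 and 34.3 FPKM in KO and 24.5 and 16.1 in WT at 44 h, and 39.3 and 46.4 FPKM in KO and 31.4 and 36.4 in WT at 0 h. Kif20a, the kinesin that brings the passenger complex to the midzone, had 30.8 and 32.8 FPKM in KO and 27.9 and 28.5 in WT at 44 h, and 39.4 and 40.1 FPKM in KO and 36.9 and 41.4 in WT at 0 h. The 44 h libraries lay below the 0 h libraries in both genotypes for Ect2, Prc1 and Kif20a, by changes of -0.59 (SE 0.16), -0.53 (SE 0.13) and -0.39 (SE 0.10) on average, with limma adjusted p = 0.0482, 0.0381 and 0.0405. Racgap1, the partner of Kif23 in centralspindlin, had 81.7 and 73.4 FPKM in KO and 56.1 and 64.6 in WT at 44 h, and 67.6 and 71.1 FPKM in KO and 57.6 and 75.5 in WT at 0 h. With PMSG it was at 0.01 (SE 0.12) on average, against -0.74 for Kif23, and Anln, the anillin scaffold, lay between 10.1 and 25.2 FPKM.

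For chromosome structure, Top2a had 56.3 and 69.1 FPKM in KO at 44 h and 64.8 and 75.5 FPKM in KO at 0 h, beside the WT values above. Mki67, the gene of the proliferation marker Ki-67, had 9.88 and 12.3 FPKM in KO and 7.58 and 6.60 in WT at 44 h, and 12.0 and 13.1 FPKM in KO and 10.0 and 12.0 in WT at 0 h. Both genes lay higher in KO at 44 h without overlap (0.39, SE 0.17, and 0.58, SE 0.19) and overlapped at 0 h. With PMSG on average Top2a was at -0.40 (SE 0.12) and Mki67 at -0.37 (SE 0.14), with limma adjusted p = 0.0611 and 0.102.

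Of 66 further mitotic genes, 61 lay higher in KO at 44 h (59 with either scaling alternative), against 55.5% of all genes, with a median of 0.42. In 47 of the 66 the KO libraries lay above the WT libraries without overlap, against 23.9% of all genes, and 0 were called, against 0.0219%. At 0 h 47 lay higher in KO (42 with median-of-ratios scaling, median 0.15), against 54.7% of all genes, and 19 of 66 fell with PMSG on average (median -0.36), against 12.4% of all genes. Ncapg, a condensin subunit, had 34.0 and 32.5 FPKM in KO and 26.6 and 22.9 in WT at 44 h, and 58.2 and 62.6 FPKM in KO and 38.8 and 50.6 in WT at 0 h, and it fell with PMSG by 0.83 (SE 0.12, limma adjusted p = 0.0159). Its libraries did not overlap in any of these comparisons. Aspm, a spindle pole protein, had 13.8 and 9.44 FPKM in KO and 6.69 and 5.83 in WT at 44 h, and 22.7 and 20.3 FPKM in KO and 10.2 and 15.1 in WT at 0 h (0.76 averaged over both times, SE 0.18, adjusted p = 0.131). Fam64a went the other way at 0 h, with 22.8 and 20.8 FPKM in KO and 33.0 and 27.8 in WT (-0.46, SE 0.16, limma adjusted p = 0.454). Of 13 subunits of the anaphase-promoting complex, which is present throughout the cell cycle, 8 lay higher in KO at 44 h (7 with median-of-ratios scaling, median 0.07). With PMSG on average limma called 2 of the 13, against 17.5% of all genes called in either direction. They were Anapc7 as higher (0.67, SE 0.138) and Cdc27 as lower (-0.75, SE 0.183), named here after their values were seen. Of 40 G1/S genes, 37 lay higher in KO at 44 h with each scaling (median 0.37), against 55.5% of all genes, and 17 at 0 h (12 with median-of-ratios scaling, median -0.03), against 54.7% of all genes. With PMSG on average 9 of the 40 fell (median -0.36), against 12.4% of all genes. The G2/M members and the G1/S genes thus had like medians at 44 h, whereas at 0 h their medians were 0.18 and -0.03, a difference between the lists that was not tested.

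Set against the promoter sequences above, changes stood in members with and without the searched letters. Whether these classes of members differ was not tested. The 26 members with a CHR form and CCAAT had a median KO minus WT difference of 0.38 at 44 h. The 4 without the searched letters (Mad2l1, Nuf2, Nusap1 and Pttg1) had one of 0.49, against 0.05 over all genes. With PMSG averaged over the genotypes the medians were -0.39 (22 of 26 below 0) and -0.47 (4 of 4 below 0). Over all genes the median was -0.12, with 61.6% below 0. Hmmr and Kif23, with a CHR form and CCAAT, fell with PMSG, and so did Pttg1, where the searched letters were absent. Ccnb2, with a CHR form and CCAAT, did not pass. These genes were picked for large values or large differences in these data, and other spellings of the CHR were not searched.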

How the data were processed

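RNA was measured in 8 libraries of mouse granulosa cells (4 groups of 2). The authors deposited FPKM values for 23235 gene symbols in 1 table, each library in its own column, as the file headers show. The submitters' processing notes name TopHat2 2.1.1, Cufflinks 2.2.1 and mm9, without saying what each was used for. The gene annotation used is not given in the sources used here, and mm9 differs from the GRCm38.p6 build of the promoter sequences, which were matched by symbol. FPKM are not counts, so no count model was used. Relative depth was estimated from ratios of low FPKM values of the same genes between libraries, and FPKM sums ranged from 675557 to 753216.

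Values were taken as log2(FPKM + 1). The filter kept the 13688 genes that reached 1 FPKM in 2 or more libraries. Group means (4 groups, 8 libraries) were fitted in limma 3.58.1 under R 4.3.3, two-sided, by empirical Bayes with trend and 4 residual degrees of freedom. In each of 7 comparisons the Benjamini-Hochberg adjustment ran over the 13688 genes, with calls at an adjusted p under 0.05. SE are those of the fit. The scripts were tested on simulated data. The members and the lists of other genes were chosen with earlier results of these data known. Genes given in full were the 2 most abundant members of each role and the 6 smallest p in each comparison. Of the other mitotic genes, Ncapg, Aspm and Fam64a were taken from the 4 smallest p in a comparison, and the rest are given in counts only. Ect2, Kif20a and Nuf2 (called), Cdk1 and Espl1 were added after their values were seen, and the remaining members are given by ranges. Alternatives covered the pseudocount, the filter, median-of-ratios and quantile scaling, a replicate block, robust empirical Bayes, fits of only the groups compared, and each library left out in turn.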

Additional observations from a re-analysis of the deposited data

How the results depend on the processing

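Of the values of single genes under the alternatives, 605 kept their side of the threshold, 37 lost a call and 12 gained one. For the counts and medians 193 held, 9 medians moved by at least the spread between replicates, 6 counts were larger and 10 were smaller. Only 44 h against 0 h averaged over the genotypes had members called at the main settings. Keeping a side or a count thus mostly meant staying uncalled, and it says little about robustness. For 44 h against 0 h averaged over the genotypes, the 14 called members became 7 with no filter, 5 with median-of-ratios scaling, 9 with quantile normalization and 0 to 17 when 1 library was left out. The median was -0.23 with median-of-ratios scaling. The replicate numbers did not pair the libraries (correlations of deviations between groups were -0.113 to -0.00684). A replicate block left 2 members called for 44 h against 0 h averaged over the genotypes, Kif2c and Pttg1, where 5.71% of all genes were called. It left 0 members called in the other comparisons. For KO against WT at 44 h the median was 0.305 with median-of-ratios scaling, and 0.301 to 0.454 with 1 library left out. For KO against WT at 0 h the median ranged from 0.06 to 0.302 with 1 library left out. Averaged over both times, the median ranged from 0.215 to 0.332 with 1 library left out. For PMSG in WT, 1 member was called with only the groups compared and 0 to 3 with 1 library left out, with medians of -0.646 to -0.369. For PMSG in KO the median was -0.086 with median-of-ratios scaling and -0.192 with quantile normalization, and -0.241 to -0.21 when 1 library was left out. The median difference of the PMSG changes ranged from 0.104 to 0.326 with 1 library left out. Among these medians and the 6 genes of smallest p in each comparison, none changed sign. With 2 libraries per group, SE of 0.14 to 0.296 limit what can be called between 2 groups, and a missing call does not show equal levels.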
